A study of Rattus norvegicus with 8 samples.

Results

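The genes described here encode the proteins of the cytosolic ribosome. They were taken by name: every row of the deposited gene table whose symbol begins with Rpl or Rps followed by a digit, or is Rpsa, without the S6 kinase genes (Rps6k). The rule found 128 rows with 114 symbols among 32754 genes. Of these rows, 49 belong to the large subunit and 35 to the small subunit, 8 are named paralogs such as Rpl22l1, 35 are pseudogenes or numbered copies, and Rps19bp1 binds a ribosomal protein without being one. The named canonical genes covered 71 of the 75 symbols listed for the mammalian ribosome, since 4 symbols, Rpl13, Rpl38 and Rps26 among them, had no row.

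The counts come from immune cells of the livers of 4 male Han Wistar rats. NC1 and NC2 were fed a choline-sufficient, l-amino acid-defined diet (CSAA), and PC1 and PC2 the choline-deficient counterpart (CDAA), a diet that produces fatty, inflamed livers. Cells of each animal were sequenced fresh and again after 3 weeks of cryopreservation in DMSO, which gave 8 droplet libraries that count the 3′ ends of mRNAs with unique molecular identifiers (UMIs). Erythrocytes had been lysed and immune cells enriched on a density medium in all of them, and age was not given in the sources used here. The libraries held 3673 to 4771 barcodes with at least 500 UMIs and 18338700 to 26471843 UMIs in all, and the median cell had 3339 to 4309 UMIs. Pairs of libraries shared 13 to 36 of these barcodes, where 18.3 to 29.7 were expected from the number of barcodes possible.

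Each ribosome pairs a large subunit, which joins amino acids, with a small subunit, which reads the mRNA, and a cell needs nearly all of their proteins in equal numbers. In mammals their mRNAs typically begin with a C followed by a stretch of pyrimidines, the 5′ terminal oligopyrimidine (TOP) motif, through which mTOR signalling and the protein LARP1 set how strongly they are translated and how long they last. Ribosomal protein mRNAs are among the most abundant in lymphocytes, and their level rises when resting cells prepare to grow.

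Because the TOP motif lies at the start of the mRNA, the RefSeq start windows of 8 genes that recur in the results are shown. Each window has 15 bases before the annotated start and the first 15 bases after it (GRCr8, matched by symbol because the libraries were counted on another build). Capitals mark the longest run of C and T near the start, which need not cover the start itself.

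Rpl10, chrX:157205835-157205864, plus strand: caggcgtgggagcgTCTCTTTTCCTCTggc
Rps18, chr20:4933730-4933759, plus strand: cacgtcacttccgCTCTCTCTTCCacagga
Rps19, chr1:89608673-89608702, plus strand: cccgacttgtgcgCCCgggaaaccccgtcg
Rpl39, chrX:121195882-121195911, minus strand: tcttctaatcgcgTTCTTCCggcctgtcct
Rpl22, chr5:168117946-168117975, plus strand: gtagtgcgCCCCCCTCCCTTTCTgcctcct
Rpl22l1, chr2:113683181-113683210, plus strand: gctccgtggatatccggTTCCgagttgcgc
Rps27, chr2:177964592-177964621, minus strand: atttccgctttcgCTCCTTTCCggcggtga
Rps27l, chr8:76443643-76443672, plus strand: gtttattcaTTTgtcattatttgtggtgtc

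Rpl10, Rps18, Rpl22 and Rps27 carry long pyrimidine runs of 13, 11, 15 and 9 bases, and Rpl39 one of 7. The marked run has only 3 bases in Rps19 and in the paralog Rps27l, and 4 in Rpl22l1. In Rps27l it begins at base -6 and ends before the annotated start, and in Rpl22l1 it begins at base 3. RefSeq starts were found for 67 of the 114 symbols, at 68 positions. A C at the annotated start followed on the same strand by at least 4 more pyrimidines, so a tract of 5 or longer, was present at 21 of the 68 starts (30.9%) and at 881 of 33469 starts of all genes (2.63%). A run of 7 or more pyrimidines that reached to within 5 bases of the start was present at 58.8% of the member starts and at 13.1% of all starts. None of the 5 paralog starts had the first feature, and 1 of 5 had the second. The 16 starts found for the list of translation factors and other genes known for TOP mRNAs held the run as often (62.5%), but 0 of 16 had the C with its tract. These are descriptions of annotated starts, and a start annotated a few bases off would hide a match.

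Ribosomal protein genes made up 20.7% to 26.7% of all UMIs in cells. In the fresh libraries the share was 23.3%, 25.3%, 22.5% and 20.7% for NC1, NC2, PC1 and PC2. After preservation it was 24.6%, 26.7%, 24.5% and 21.7% in the same order. Every animal therefore moved up, while NC2 stayed the highest and PC2 the lowest in both states. The mean difference was 1.44 ± 0.429 percentage points (SD, n = 4 animals, exact two-sided sign-flip permutation test p = 0.125, the smallest value that 4 pairs can give). The share is relative to all other mRNAs, and fewer cells of a type and less RNA per cell cannot be told apart in such sums. The mitochondrial share of UMIs moved the other way, from 6.08%, 8.22%, 6.07% and 7.02% in fresh cells to 5.21%, 7.78%, 5.78% and 5.28% in preserved cells. In cells with at least 20% mitochondrial UMIs the ribosomal protein share was only 9.42% to 13.7%, and without these cells the difference between preserved and fresh was 1.42 points. Fresh and preserved cells of an animal were also processed 3 weeks apart, so that preservation and the time of processing cannot be told apart.

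The ratio of the subunits varied little. Large subunit genes gave 1.26 ± 0.0241 times the UMIs of small subunit genes in fresh cells (SD, n = 4, range 1.23 to 1.28). Preservation moved this ratio by -0.0099, lower in all 4 animals (exact permutation test p = 0.125). In the gates described below it was also lower in 4 of 4 animals for Cd79a (-0.0227), Cd3e (-0.0216) and Clec4a3 (-0.0164), and of mixed sign in the other 4.

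Single genes differed widely in level. UMIs are counted at the 3′ end, so levels need no division by gene length. Rpl41, which encodes the smallest ribosomal protein, gave 3.47% of all member UMIs, Rpl10 gave 3.14%, Rps14 2.76%, Rps27 2.76% and Rps18 2.71%. At the other end, canonical genes were almost without counts: Rpl8 had 3 UMIs over all 8 libraries, a Rpl35a row (ENSRNOG00000032348) had 7, and 2 rows of Rpl7a had 15 and 20, while rows of Rps29 and Rpl39 (ENSRNOG00000032542 and ENSRNOG00000032835) had none. Several copies of one gene are annotated in the rat, 9 symbols having 23 rows, and pseudogenes and numbered copies took 3.41% of member UMIs. Reads that fit more than 1 copy may be dropped or assigned to another row, and how much this sets the level of a row was not tested.

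**Figure D1:**
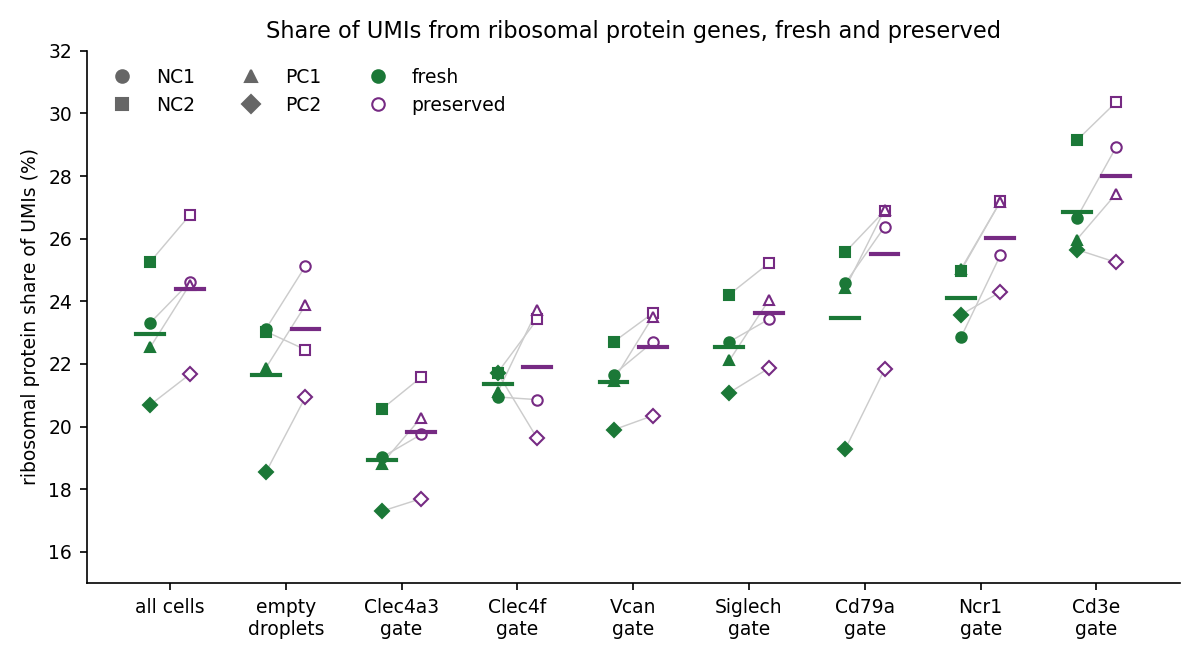
Share of UMIs from ribosomal protein genes (y axis, %, starting at 15%) in all cells, in empty droplets and in 7 marker gates; each symbol is an animal, filled green for fresh and open purple for preserved, thin lines join the libraries of an animal and bars are means of 4. The Cd3e gate is highest with a fresh mean of 26.9% and the Clec4a3 gate lowest with 18.9%.

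Lineages were separated with 7 marker genes. A barcode entered a gate when it had at least 1 UMI of that marker and none of the other 6: Clec4f (a Kupffer cell lectin), Clec4a3 (a lectin of myeloid cells), Vcan (monocytes), Siglech (plasmacytoid dendritic cells), Cd79a (B cells), Cd3e (T cells) and Ncr1 (NK cells). Between 23 and 640 cells fell into a gate in each library. Further markers of each lineage, the gating genes left out, were highest in their own gate for 7 of 7 Kupffer, 6 of 6 B, 6 of 6 T, 6 of 6 NK, 6 of 7 dendritic, 5 of 6 monocyte and 4 of 5 Clec4a3 myeloid genes. The Clec4f gate also held NK genes, with Nkg7, Klrd1, Prf1 and Gzmb at 1465, 512, 1031 and 304 CPM (UMIs scaled to a common total). The Ncr1 gate had 3528, 1256, 2437 and 736, and the Clec4a3 gate 728, 232, 363 and 141. Nkg7 also stood at 957 CPM in the Vcan gate, 972 in Siglech, 771 in Cd79a and 1090 in Cd3e. The monocyte marker Lyz2 had 22964 CPM in the Vcan gate, but also 5686 in Cd79a, 4787 in Cd3e and 3773 in Ncr1. No gate was therefore free of markers of other lineages. Some of the further markers counted as highest in their own gate were near the floor. Eomes had 0.80 CPM in the Ncr1 gate and 0.65 in Clec4f, and Ccr2 had 1.80 in Vcan and 1.36 in Siglech. At least 2 further Kupffer markers were found in as few as 18 Clec4f cells of a fresh library and 13 of a preserved one. From 1383 to 1991 barcodes per library held markers of more than 1 gate and were left out, and no doublet caller was run.

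The share of ribosomal protein UMIs differed among the gates. In fresh cells it was 26.9% ± 1.58 in the Cd3e gate, 24.1% ± 1.08 in the Ncr1 gate, 23.5% ± 2.83 in the Cd79a gate, 22.5% ± 1.31 in the Siglech gate, 21.4% ± 1.16 in the Vcan gate, 21.4% ± 0.407 in the Clec4f gate and 18.9% ± 1.33 in the Clec4a3 gate (SD, n = 4). The Cd3e gate held 26.7%, 29.1%, 26.0% and 25.7% in NC1, NC2, PC1 and PC2, and the Clec4a3 gate 19.0%, 20.6%, 18.8% and 17.3%, with no overlap. In the Cd79a gate PC2 stood apart, at 19.3% against 24.4% to 25.6% in the others. Among Cd79a cells that also held UMIs of at least 2 further B cell markers (26 to 101 per fresh library, a setting chosen after seeing the data), the share was 25.9% in PC2 and 26.9% ± 0.883 over the 4 animals. With that setting the Cd79a gate lay above the Ncr1 gate (24.2% ± 1.04), the reverse of the order above. Of the 21 pairs of gates, 15 had the same order in all 4 animals. The order was mixed in the other 6 pairs, among which Vcan lay below Cd79a (-2.02 ± 1.76 points) in 3 of 4 animals. With 4 animals no pair can pass a threshold of 0.05 (exact sign-flip permutation test, smallest p = 0.125, 0.175 after Benjamini-Hochberg adjustment over 21 pairs). The mean of the 3 lymphoid gates (Cd79a, Cd3e, Ncr1) exceeded the mean of the 3 myeloid gates (Clec4f, Clec4a3, Vcan) by 4.23 ± 0.757 points, in 4 of 4 animals (exact permutation test p = 0.125). This difference was 1.86 points when gates could overlap and 7.97 points when 2 UMIs of the marker were required, a setting that left Clec4a3 as the only myeloid gate with at least 20 cells in every fresh library.

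Droplets without a cell carry free RNA, and this RNA was also rich in ribosomal protein mRNAs. Barcodes with 1 to 100 UMIs held 23.1%, 23.0%, 21.9% and 18.6% in the fresh libraries of NC1, NC2, PC1 and PC2. Cells exceeded them by 1.30 ± 1.04 points in fresh libraries, in 4 of 4 animals (exact permutation test p = 0.125), and by 1.29 ± 2.08 points in preserved libraries, in 3 of 4 (p = 0.25, exact). With empty droplets taken as barcodes of 1 to 20 UMIs, the preserved difference was 2.04 ± 1.45 points, in 4 of 4 animals. The share in the Clec4a3 gate lay below that of empty droplets in all 4 fresh libraries.

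Nearly every ribosomal protein gene varied among lineages. In the fresh libraries 96 of the 128 rows passed the filter on low counts, and 90 of the 96 differed among the 7 gates at an adjusted p under 0.05 (edgeR quasi-likelihood F test on UMIs summed per gate and library, library as block), where 53.8% of the 6979 genes tested did. The differences were small: the mean level of a member ranged by a median of 0.64 log2 units over the gates, against 0.88 for all genes. The Cd3e gate was highest for 81 of 94 members and the Clec4a3 gate lowest for 77. How often these gates were highest or lowest among all genes is not given, so how far this is particular to the members cannot be read from the counts. The widest ranges over the gates were those of Rpl26-ps1 (1.81 log2 units), Rps4y2 (1.79), Rps15al2 (1.76), Rpl22l2 (1.56), Rpl31l4 (1.47) and Rpl36a-ps2 (1.42). Of these, Rps4y2 and Rpl22l2 did not pass the F test among gates (edgeR adjusted p = 0.425 and 0.325), and the others did. A wide range alone is therefore no sign of a lineage difference.

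Lymphoid gates had more of most members than myeloid gates. In fresh libraries 77 of the 96 members tested were higher and 2 were lower, while 14.8% of all genes were higher and 14.5% lower. The median log2 difference was 0.31 for the members and 0.05 for all genes. It depended on the gates, at 0.09 when they could overlap and 0.60 when 2 UMIs of the marker were required. The latter setting kept Clec4a3 as the only myeloid gate, so the contrast itself changed. Higher values in all 4 animals were seen for 84 of 94 members (89.4%), beside 26.3% of all genes. By class, 35 of 43 large subunit rows and 28 of 31 small subunit rows were higher, as were 13 of 16 pseudogenes or numbered copies, but only 1 of 5 named paralogs.

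Rps27, a small subunit protein with a zinc finger, shows the common size of the difference. Its log2 lymphoid over myeloid difference was 0.45, 0.39, 0.42 and 0.30 in NC1, NC2, PC1 and PC2, and 0.38 ± 0.036 in the fit (SE, edgeR adjusted p = 2.93e-11). The SE and p of this and the other edgeR fits among gates rest on several gate sums per animal. They do not measure the spread of the difference over the 4 animals alone. Rpl5 and Rpl11, which with 5S RNA form the particle that restrains Mdm2 and so raises p53, were higher by 0.46 ± 0.054 and 0.37 ± 0.040. Rpl13a, known outside the ribosome for silencing inflammatory mRNAs in monocytes, was higher by 0.39 ± 0.040. It rose from 11.76 ± 0.185 log2 CPM (UMIs scaled to a common library total) in the Clec4a3 gate to 12.46 ± 0.114 in the Cd3e gate. Rpl3, which lies at the peptidyl transferase centre, was higher by 0.38 ± 0.051, Rps29 (ENSRNOG00000004196) by 0.37 ± 0.044, Rps19 by 0.35 ± 0.053 and Rpsa, also known as the laminin receptor, by 0.26 ± 0.042. All of these had higher lymphoid values in 4 of 4 animals. Rps6, the substrate of S6 kinase, had a difference of 0.48 ± 0.195 that did not pass (adjusted p = 0.0855), from a row of 13.7 to 20.9 normalized CPM. In the preserved libraries, fitted on their own, Rps6 was among the called members with the largest lymphoid excess.

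The 6 largest differences were in pseudogenes, numbered copies and a rare row of Rpl21: Rps15al2 (1.07 ± 0.276), Rpl26-ps1 (0.95 ± 0.232), Rpl21 (ENSRNOG00000032803; 0.78 ± 0.293), Rpl5l1 (0.59 ± 0.083), Rpl36a-ps2 (0.57 ± 0.078) and Rps4x-ps9 (0.56 ± 0.065). Only Rps15al2 passed the threshold and differed by 2-fold or more. In the preserved libraries, fitted on their own, no member did both. There Rps15al2 and this Rpl21 row did not differ among the gates (edgeR F test adjusted p = 0.0804 and 0.222), while the other rows named here did.

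**Figure D2:**
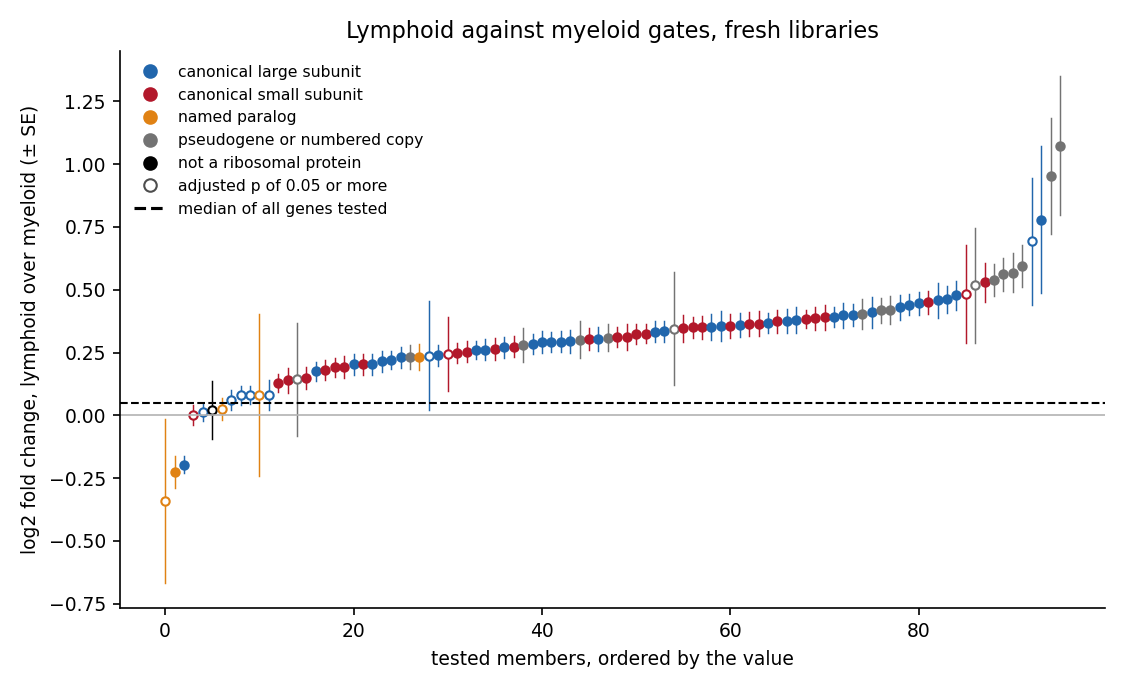
Log2 fold change of lymphoid over myeloid gates in fresh libraries (y axis, ± SE) for the 96 members tested, ordered by value along the x axis and coloured by class; filled points have an adjusted p under 0.05 and the dashed line is the median of all genes tested, 0.05. Of the filled points, 77 lie above 0 and 2, Rps27l and Rpl10, below.

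The 2 members that were lower in lymphoid gates were Rps27l and Rpl10. Rps27l is a paralog of Rps27 that p53 induces. Its log2 difference was -0.25, -0.22, -0.17 and -0.21 in NC1, NC2, PC1 and PC2, and -0.23 ± 0.065 in the fit (edgeR adjusted p = 0.00659), opposite in sign to Rps27. In preserved libraries it was -0.24 ± 0.068 (adjusted p = 0.00472). Per 100 UMIs of Rps27 there were 4.49 ± 1.05 of Rps27l in the Clec4f gate, 4.26 ± 0.638 in the Siglech gate, 3.98 ± 0.572 in the Clec4a3 gate and 3.75 ± 0.797 in the Vcan gate. The lymphoid gates had 2.79 ± 0.531 (Ncr1), 2.68 ± 0.499 (Cd3e) and 2.54 ± 0.573 (Cd79a) (SD, n = 4 fresh libraries).

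Rpl22 and Rpl22l1 behaved differently from that pair. Rpl22, which is dispensable for most ribosomes but needed by developing T cells, and its paralog were of nearly equal level, with 98.7 ± 7.92 Rpl22l1 UMIs per 100 of Rpl22 over all fresh cells (SD, n = 4). The ratio was 83.6 ± 7.59 in the Cd79a gate and 106 ± 15.1 in the Clec4f gate, and the ranges of these fresh gates did not overlap. In preserved libraries the ranges overlapped, with 90.8 ± 9.92 in the Cd79a gate and 92.8 ± 12.3 in the Clec4f gate. Both were higher in lymphoid gates, Rpl22 by 0.30 ± 0.047 and Rpl22l1 by 0.23 ± 0.052 (adjusted p = 4.9e-04). The remaining paralogs were rare: Rpl3l had 0.272 ± 0.0312 UMIs per 100 of Rpl3, Rpl10l had 34 UMIs in all, and Rpl39l had none.

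Rpl10, an X-linked protein that completes the large subunit, differed between animals more than between conditions. Its normalized CPM (scaled by TMM, the trimmed mean of M values) was 5841, 11224, 5943 and 5528 in fresh cells of NC1, NC2, PC1 and PC2. In preserved cells it was 6637, 12991, 7260 and 5606. Both libraries of NC2 were thus near 2-fold above the rest, by 0.96 and 1.01 log2 units over the mean of the other 3 animals, where the other members had a median of 0.21 and 0.23. The excess was present in all 7 gates of both libraries, at 0.81 to 1.03 log2 units in fresh and 0.81 to 1.13 in preserved cells. No cause of it was tested, and reads shared with copies of Rpl10 could not be traced in the counts. Within each animal Rpl10 was still lower in lymphoid than in myeloid gates, by -0.23, -0.18, -0.17 and -0.19 on the log2 scale (fit -0.20 ± 0.035, adjusted p = 1.84e-05; preserved -0.22 ± 0.038). Its highest gate was Vcan.

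**Figure D3:**
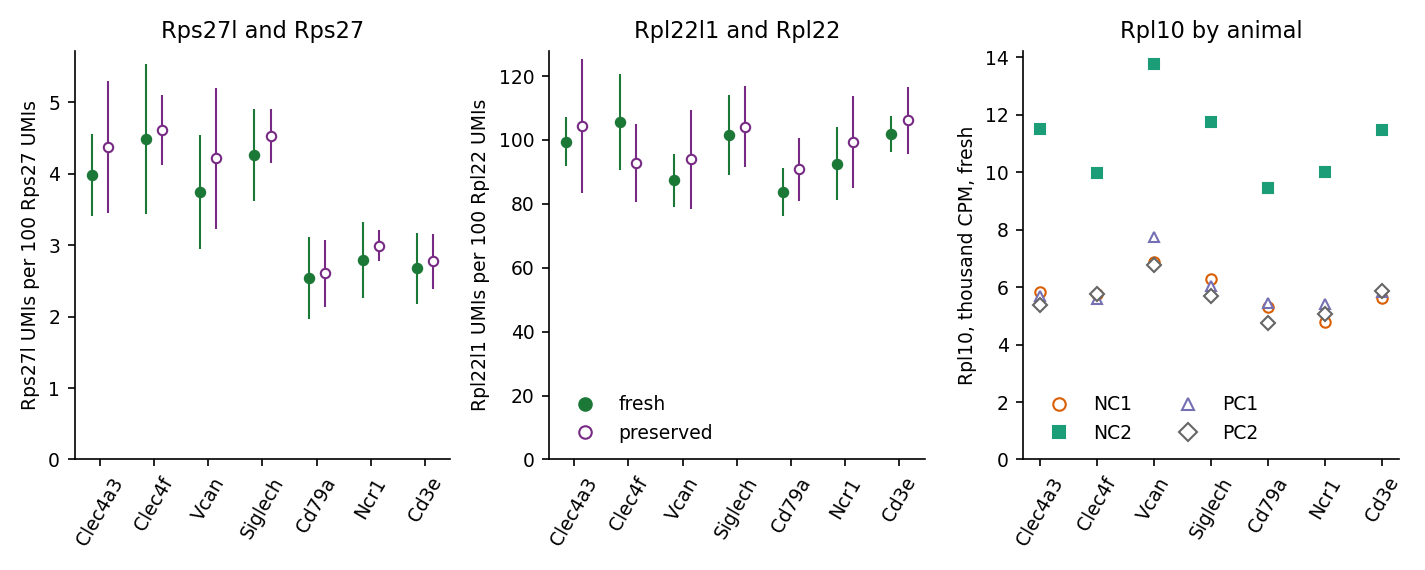
Left and middle, UMIs of Rps27l per 100 of Rps27 and of Rpl22l1 per 100 of Rpl22 in 7 gates (mean ± SD of 4 fresh and 4 preserved libraries); right, Rpl10 in the fresh libraries (axis in units of 1000 CPM), a symbol per animal. The mean fresh Rps27l ratio is 2.54 to 2.79 in the 3 lymphoid gates and 3.75 to 4.49 in the other 4 (preserved, 2.61 to 2.99 and 4.22 to 4.61), and NC2 lies above the other animals in every gate for Rpl10.

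The preserved libraries, fitted on their own, gave 79 members higher and 2 lower of 93 in lymphoid gates, where 19.6% and 16.7% of all genes were called. The median was 0.36, against 0.08 for all genes. The change of the lineage difference itself with preservation was tested directly. No member of 94 passed (limma on per-library differences; 0% of all 6273 genes were called, and 1 member had an unadjusted p under 0.05), with a median of 0.04 beside 0.02 for all genes.

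Other parts of the translation apparatus were read from lists. Of the ribosomal protein genes whose names fall outside the rule, Rack1, a scaffold on the small subunit, was higher in lymphoid gates (0.24 ± 0.043), while Rplp0, Rplp2 and Fau had values of 0.08, 0.41 and -0.01 that did not pass. Translation factors and other TOP mRNAs were higher in 13 of 17, led by Eef1a1 (0.67 ± 0.073), Eef2 (0.46 ± 0.057), Eef1g (0.43 ± 0.053) and Pabpc1 (0.38 ± 0.067). Ribosome assembly genes were higher in 7 of 21, among them Nop56 (0.61 ± 0.126). Of 8 regulators, Myc was higher (0.97 ± 0.132) and Eif4ebp1, which holds back cap-dependent translation, was lower (-0.68 ± 0.079).

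Which genes outside the rule were most like the members was measured as Pearson r with the summed members' log2 CPM over 28 sums of gate and fresh library, which share libraries, diet and depth and are not independent. The first 10 included Rack1 (0.947), LOC100359922 (0.941), Eef2 (0.938), LOC100362830 (0.924), LOC100360413 (0.915), LOC102548369 (0.911), LOC100362027 (0.907), AC117869.1 (0.897) and RGD1563905 (0.896). The median r was 0.73 for 17 translation factors and TOP mRNAs, 0.20 for 21 assembly genes, -0.22 for 7 regulators and 0.06 for the 6179 genes that are no member.

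Many members were slightly higher in the preserved libraries. In cells summed per library, 34 of the 109 members that passed the filter on low counts were higher in preserved cells at an adjusted p under 0.05 and 0 were lower (edgeR quasi-likelihood test, animal as block), where 4.32% of 12163 genes were higher and 3.92% lower. At an unadjusted p under 0.05 there were 68 members, in either direction. The median log2 fold change was 0.15 for members and -0.0033 for all genes, and 66 members (60.6%) were higher in all 4 animals, beside 17.5% of all genes. The calls comprised 15 of 43 large subunit rows, 12 of 33 small subunit rows, 6 of 26 pseudogenes or numbered copies and Rpl22l1 of 6 named paralogs. None reached 2-fold.

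The count rested on the animals. There were 33 higher and 10 lower members without NC1, while 26 were called without PC2, 7 without PC1 and 1 without NC2, and 0 in a fit without the animal as block. The share of all genes called in these fits is not given, so the counts have no such value beside them. With members left out of the scaling factors, or with DESeq2's size factors in their place, 35 were called, again without the share of all genes.

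Rps19, a small subunit protein whose mutation causes Diamond-Blackfan anaemia in people, rose most among the called members. Its normalized CPM was 938, 879, 729 and 716 in the fresh libraries of NC1, NC2, PC1 and PC2 and 1053, 1494, 1132 and 1000 in the preserved ones, so that no preserved library lay below a fresh one. The log2 fold change was 0.51 ± 0.085 (adjusted p = 0.00842, higher in 4 of 4 animals), from 0.17 in NC1 to 0.77 in NC2. It was 0.46 to 0.61 in each of the 7 gates, and passed the threshold in the Clec4a3, Siglech, Cd79a, Cd3e and Ncr1 gates (adjusted p = 0.0539 in Vcan and 0.111 in Clec4f).

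The other members with the largest rises were Rpl35a (ENSRNOG00000032303; 0.43 ± 0.070), Rpl31l4 (0.43 ± 0.058), Rpl21 (ENSRNOG00000032803; 0.41 ± 0.100), Rpl6-ps1 (0.40 ± 0.062) and Rps10l1 (0.34 ± 0.052), all higher in 4 of 4 animals. Rpl35a went from 352, 385, 293 and 279 CPM to 396, 557, 446 and 370. The rise in NC1 was the lowest of the 4 animals for Rps19, Rpl35a, Rpl31l4 and Rpl6-ps1.

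Rpl22l1 rose by 0.28 ± 0.054 (adjusted p = 0.0157), and Rpl22 by 0.23 ± 0.049 (adjusted p = 0.0239). Rpl22l1 went from 933, 919, 922 and 977 CPM in the fresh libraries to 1093, 1255, 1049 and 1176 CPM, with no overlap. Rpl5 (0.26 ± 0.049), Rpsa (0.23 ± 0.049) and Rpl3 (0.19 ± 0.048) passed as well. Rpl10 (0.18 ± 0.051, adjusted p = 0.0649), Rpl13a (0.16 ± 0.046, 0.0682) and Rpl11 (0.14 ± 0.046, 0.0859) did not pass and were higher in 4 of 4 animals. Rps27 had a value of -0.01 ± 0.048, Rps27l of 0.11 ± 0.057, Rps6 of -0.08 ± 0.102 and Rps29 (ENSRNOG00000004196) of 0.14 ± 0.058. A rare row of Rps29 (ENSRNOG00000029443, under 2 CPM) had -0.70 ± 0.247 (adjusted p = 0.113), lower in 4 of 4 animals.

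**Figure D4:**
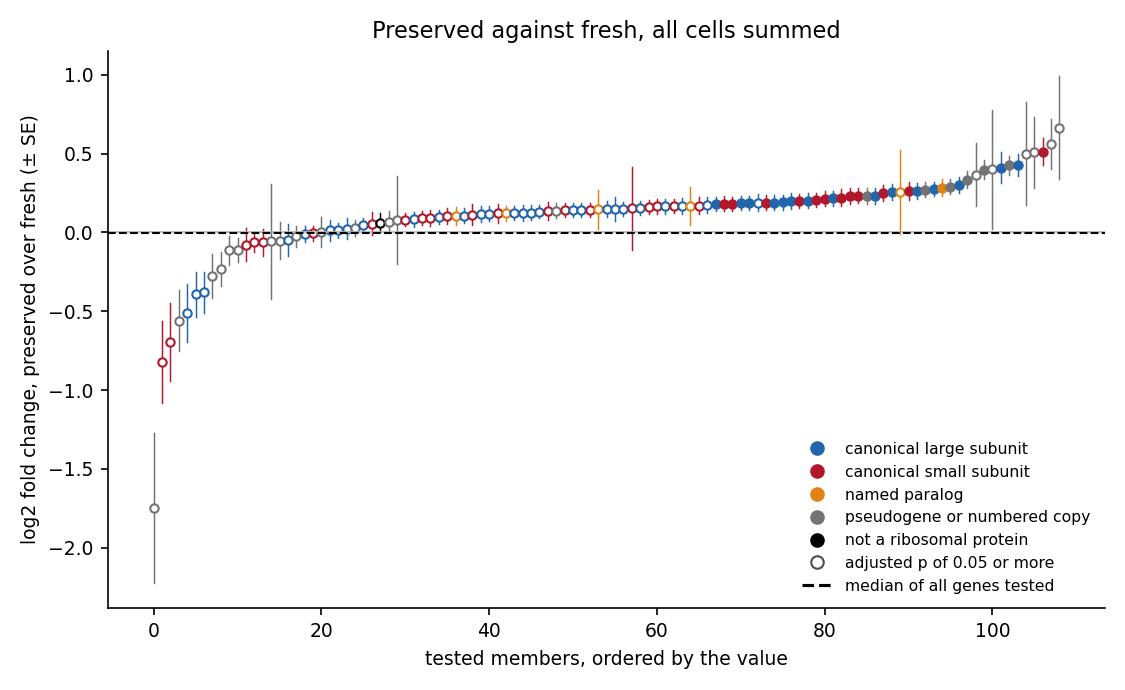
Log2 fold change of preserved over fresh cells (y axis, ± SE) for the 109 members tested, ordered by value along the x axis and coloured by class; filled points have an adjusted p under 0.05 and the dashed line is the median of all genes tested, -0.0033. All 34 filled points lie above 0 and the lowest open points have wide errors.

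A smaller set moved the other way in 3 animals. Rps10, a protein at the head of the small subunit, had 136, 302, 271 and 216 normalized CPM in fresh libraries of NC1, NC2, PC1 and PC2 and 196, 128, 119 and 87.0 in preserved ones. It was higher after preservation in NC1 and lower in the other 3, with log2 values of 0.53, -1.23, -1.19 and -1.31. The fit gave -0.82 ± 0.260 (adjusted p = 0.0810). The fresh NC1 library was thus near the preserved libraries. The numbered copy Rps10l1 went from 1213, 1208, 1060 and 1009 CPM to 1456, 1532, 1480 and 1203 in the same libraries.

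Rpl39, which lines the exit tunnel of the large subunit, showed the same order. Its row ENSRNOG00000043348 had 521, 970, 823 and 801 CPM before and 652, 650, 547 and 490 CPM after preservation. Without NC1, 10 members were called lower, and these were named after their values were seen: Rps15al4, Rps10, Rps15-ps2, Rpl35a (ENSRNOG00000049536), Rpl39, Rpl32 (ENSRNOG00000010746), Rpl26-ps1, Rps21-ps1, Rpl30 and Rps25. All 10 were higher in NC1, by 0.16 to 0.53 log2 units, and lower in each of the other 3 animals, by -2.92 to -0.12. Because a fit on those 3 animals chose them, lower values there follow from the choice. Outside the rule, the elongation factor Eef1a1 (0.54 in NC1 and -1.25 to -1.17 in the others) and Btf3, part of the nascent chain complex (0.51 and -1.01 to -0.96), had the same order. The paper states that cells and libraries were always handled by the same person and that the libraries of an experiment shared a flowcell. Whether the fresh NC1 library was handled or read differently in some other way was not tested.

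**Figure D5:**
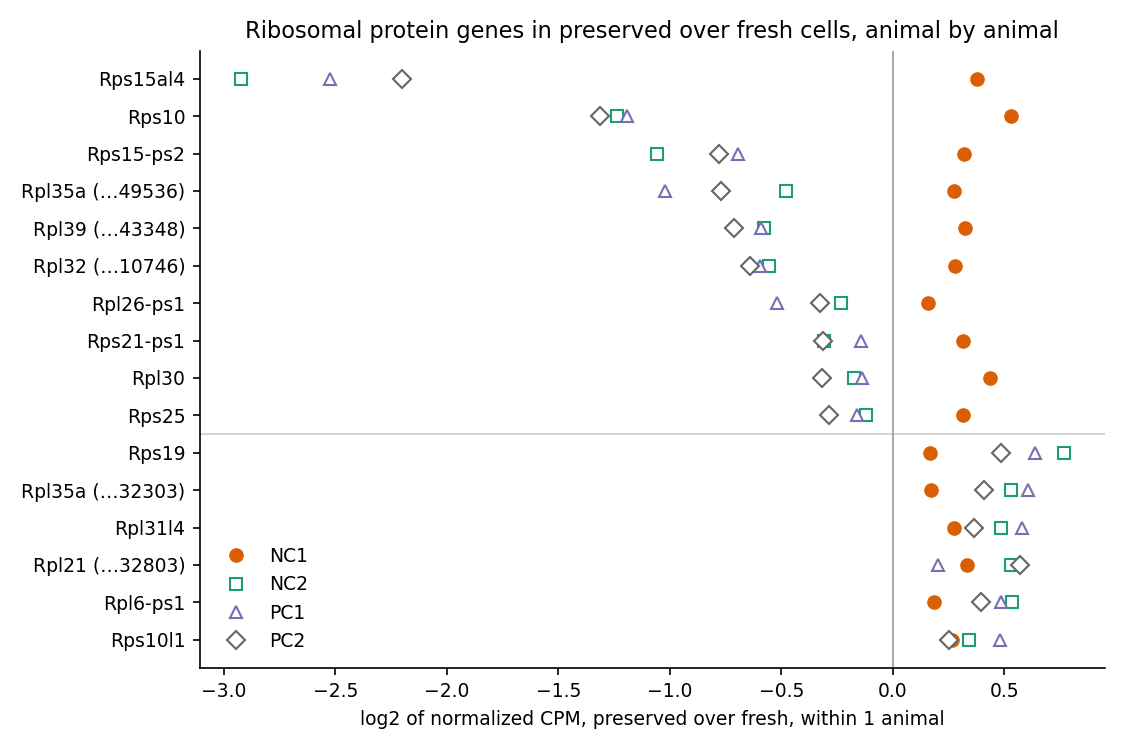
Log2 of normalized CPM, preserved over fresh (x axis), for 16 members within each animal; NC1 is filled. The 10 members above the line are those called lower without NC1, with NC1 right of 0 and the other 3 animals left of it, and the 6 below it are the called members with the largest rises, right of 0 in all 4 animals. Both sets were chosen by fits to these same values.

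To keep the sizes of the gates from entering, the gates were weighted equally. The 778 to 1257 barcodes per library without any of the 7 markers did not enter, and the mixture of cells within a gate could still differ. With each of the 7 gates given the same weight in every library, 14 of 94 members were higher and 1, Rps10, was lower, where 2.18% and 2.36% of all genes were called (limma on mean log2 CPM over gates, animal as block). The median was 0.14 for members and -0.02 for all genes. Rps19 (0.54 ± 0.079, adjusted p = 0.00292), Rpl6-ps1 (0.43 ± 0.070) and Rpl35a (ENSRNOG00000032303; 0.37 ± 0.068) led the rises, and Rps10 had -0.84 ± 0.198 (adjusted p = 0.0367; 0.28 in NC1 and -1.26 to -1.14 in the others). Here also the count fell to 0 without NC2 and to 1 without PC1. Fitted gate by gate, the median of the members tested was 0.20 in the Cd79a gate, 0.17 in Ncr1, 0.15 in Vcan, 0.14 in Clec4a3, 0.12 in Cd3e, 0.11 in Siglech and 0.07 in Clec4f, while that of all genes lay between -0.02 and 0.01.

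In share of UMIs, preserved cells exceeded fresh ones in 4 of 4 animals in the Cd79a (2.05 ± 0.593 points), Ncr1 (1.93 ± 0.827), Vcan (1.11 ± 0.667), Siglech (1.10 ± 0.556) and Clec4a3 (0.906 ± 0.453) gates (exact permutation test p = 0.125 in each). The Cd3e gate rose in 3 of 4 (1.135 ± 1.12, exact p = 0.25) and the Clec4f gate, with 23 to 78 cells per library, in 2 of 4 (0.537 ± 2.07, exact p = 0.75). Empty droplets had 1.45 ± 1.37 points more after preservation, in 3 of 4 animals. Marker sums of other cells were read as lowest to highest values over the 4 animals, without a paired test, and the fresh and preserved ranges overlapped. The 4 erythroid markers with a row summed to 22.1 to 38.9 CPM before and 24.3 to 482 CPM after preservation. Endothelial markers had 81.8 to 199 before and 79.5 to 199 CPM after. Platelet markers had 15.4 to 38.7 and 17.7 to 28.8 CPM, and cholangiocyte markers 2.08 to 5.77 and 1.86 to 4.13 CPM. The 8 hepatocyte markers summed to 51.5 to 105 and 33.6 to 81.5 CPM, the 5 neutrophil markers to 285 to 783 and 194 to 556 CPM and 8 cycling genes to 197 to 372 and 252 to 513 CPM, and their part in the result was not tested. In 2 of the lists a defining marker was at 0, Col1a1 of stellate cells and Sox9 of cholangiocytes.

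Among the ribosomal genes outside the rule, Rack1 rose (0.21 ± 0.047, adjusted p = 0.0294), beside values that did not pass of 0.17 for Rplp0, 0.09 for Fau and 0.08 for Rplp2. Translation factors and TOP mRNAs had 6 of 18 higher and 1 lower, with a median of 0.14. Npm1, a nucleolar chaperone, rose by 0.30 ± 0.047, and Pabpc1, the cytoplasmic poly(A)-binding protein and itself a TOP mRNA, fell in 4 of 4 animals (-0.41 ± 0.051, adjusted p = 0.00330). Of 25 assembly genes 3 were higher, among them Nop58 (0.56 ± 0.062, adjusted p = 0.00172) and Gar1 (0.30 ± 0.077). Of 13 regulators, Ddit4, an inhibitor of mTOR signalling, was lower in 4 of 4 animals (-0.54 ± 0.069, adjusted p = 0.00330).

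Diet was compared with 2 animals a group, and no member passed. In fresh cells 0 of 109 members were called, where 1.18% of 11772 genes were, and 10 members had an unadjusted p under 0.05 (edgeR; 1 was called by DESeq2). In preserved cells 0 of 108 members were called beside 0.642% of genes, with 16 at an unadjusted p under 0.05 and 1 called by DESeq2. The medians were -0.14 in fresh and -0.20 in preserved cells, against -0.02 and -0.03 for all genes, and 15 of 109 and 2 of 108 members had a positive value. Both comparisons use the same 4 animals, and these counts rested on single ones. In fresh cells 39 of 109 members were positive without NC2 (median -0.06) and 32 without PC2 (-0.08), and in preserved cells 17 of 109 without NC2 (-0.11) and 32 without PC2 (-0.09). With gates weighted equally, 0 of 94 members were called (limma; 1.05% of genes) and the median was -0.07, against 0.03 for all genes.

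The share of UMIs was 24.3% in the CSAA animals and 21.6% in the CDAA animals in fresh cells, a difference of -2.67 points without overlap, and -2.58 points in preserved cells (exact permutation test p = 0.333 in each, the smallest that 2 against 2 can give). In fresh gates the difference ranged from -3.23 points in Cd79a to 0.385 in Ncr1. NC2 was the highest library and PC2 the lowest, and leaving out an animal moved the fresh difference to between -3.65 and -1.70 points and the preserved one to between -4.01 (without PC1) and -1.15 points (without PC2).

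Rps2 (ENSRNOG00000014179), a small subunit protein near the mRNA entry, had among the smallest p values for diet. It gave 3462 and 3051 CPM in the fresh CSAA libraries and 2370 and 1710 CPM in the fresh CDAA libraries, then 3766, 3925, 2642 and 2260 CPM in the preserved ones. The groups did not overlap, and the log2 difference was -0.65 ± 0.178 in fresh (adjusted p = 0.138) and -0.65 ± 0.151 in preserved cells (adjusted p = 0.132). In fresh cells Rpl31l4 (-0.40 ± 0.101, edgeR adjusted p = 0.121) came before Rps2 by p, and Rpl35a (ENSRNOG00000032303; -0.34 ± 0.104, 0.162) after it. In preserved cells Rps6 (-0.57 ± 0.143, 0.156) and Rps15al2 (-0.63 ± 0.165, 0.173) followed Rps2. Rpl10 had -0.54 ± 0.280 (adjusted p = 0.343), with only NC2 above the CDAA animals by a wide margin. Of the fixed genes, Rps27l had 0.26 ± 0.107 (adjusted p = 0.262) beside -0.16 ± 0.136 for Rps27, and Rps19 had -0.31 ± 0.105 (adjusted p = 0.195).

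Whether preservation acted differently under the 2 diets was tested as an interaction. No member of 109 passed (edgeR; 0.0329% of all genes did), and 4 had an unadjusted p under 0.05, with a median of -0.03 against 0.01 for all genes. Without NC2, which left NC1 alone in the CSAA group, the median of the members was -0.04.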

How the data were processed

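Fresh and cryopreserved liver immune cells of 4 rats were profiled by droplet 3′ single-cell RNA sequencing. The deposited values are raw UMI counts per gene and barcode, which the authors made with Cell Ranger 2.1.1 (bcl2fastq 2.17.1.14 and STAR) on the rat Rnor 6.0 genome; all 737280 possible barcodes were listed. Reads that match several gene copies may be dropped or assigned to 1 of them, which can change rows of duplicated genes. Barcodes with at least 500 UMIs were kept and counts were summed per library, or per library and gate (at least 20 cells). Genes were filtered with filterByExpr, scaled by TMM and tested with edgeR 4.0.16 (quasi-likelihood) or limma 3.58.1 in R 4.3.3. P-values were adjusted by Benjamini-Hochberg over all genes tested, and a call needed an adjusted p under 0.05 with no minimum fold. DESeq2 1.42.0 was an alternative. Fresh and preserved libraries of 1 animal were paired, with deviations correlated at 0.54 to 0.71. Shares were compared with exact permutation tests over animals. The study's cell-based test was not used because cells are not replicates.

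Named genes were up to 6 called members in each direction by size of change (the 3 with the smallest p where fewer than 3 were called), fixed paralog pairs and Rpsa, Rps6, Rps19, Rpl5, Rpl11, Rpl13a and Rps29, the 6 with the widest range over gates, the 5 with most UMIs, canonical rows with fewest and the 10 genes most alike. Members and lists were chosen with earlier results of these data known. On simulated counts the tests recovered 156 of 200 changed genes for preservation in pooled cells (11434 genes), 169 of 200 with gates weighted equally (5992 genes), 142 of 200 for lineage (6154 genes) and 130 of 200 for diet in fresh cells (11434 genes). The fold changes and the spread used there are not given here. These rates therefore need not hold for differences as small as the members' medians. One gene of the comparison lists is not reported here.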

Additional observations from a re-analysis of the deposited data

Results flagged for a closer look

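Of 70 groups of 4 values that were examined, 4 had a value far from the others (Dixon's ratio above the 95% critical value), and chance alone flags about 1 in 20. The change of the ribosomal protein share of empty droplets with preservation was -0.578 points in NC2 and 1.997 to 2.39 points in the other 3 animals. The share of the preserved Cd79a gate was 21.8% in PC2 and 26.4% to 26.9% in the others, but 27.1% in PC2 and 26.6% to 29.8% in the others among cells with at least 2 further B cell markers. For Rpl39 (ENSRNOG00000043348) the log2 of preserved over fresh was 0.32 in NC1 and -0.71 to -0.58 in the others, and for Rpl3l it was -0.23 in PC2 and 0.23 to 0.29 in the others.

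The change of Rps6 with preservation went up in both CSAA animals (mean log2 0.12) and down in both CDAA animals (mean -0.27), a difference of -0.39. The interaction of diet and preservation did not pass (edgeR adjusted p = 0.761).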

How the results depend on the processing

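Counts of called members depended on which animals entered. The share of all genes called is not given for the fits that leave out an animal or for the other alternatives below. For preservation in pooled cells the count of 34 ranged from 1 (without NC2) through 7 (without PC1) to 43 without NC1, and with gates weighted equally the 15 calls ranged from 0 (without NC2) through 1 (without PC1) to 17. Without the replicate block the pooled count was 0, since libraries of an animal resemble each other and are paired by design. With no filter it was 54 (48 higher, 6 lower), and with a 2-fold minimum 0. With overlapping gates the equally weighted count was 24. In fresh libraries a 2-fold minimum left 13 members that differed among gates and 1 between lymphoid and myeloid gates, and none between lymphoid and myeloid gates in preserved libraries. For diet, DESeq2 called 1 member in fresh and 1 in preserved cells, and leaving out an animal gave 0 to 4 in fresh, 0 to 1 in preserved and 0 to 8 with gates weighted equally, and 0 to 6 for diet by preservation.

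Some values changed sign, not all of them near 0, and for these the range over the left-out animals is given. Among the values of named genes under these alternatives, 65 were weaker and 20 stronger than in the main setting. Of the weaker ones, 31 were for preservation in pooled cells. For preservation in pooled cells it was -0.0597 to 0.0137 for Rps27 (0.0101 without barcodes with markers of several gates), -0.156 to 0.0408 for Rps6 and -0.0196 to 0.103 for Rps29 (ENSRNOG00000028939). With gates weighted equally it was -0.0809 to 0.00515 for Rps27, -0.0510 to 0.138 for Rps6 (-0.122 with 2 further markers, a setting chosen after seeing the data, and -0.0761 with overlapping gates) and -0.0149 to 0.133 for Rps29 (ENSRNOG00000028939). The Clec4f share change ranged from -0.157 to 1.41 points, and Rpl39 between lineages was -0.0585 with overlapping gates. For diet in fresh cells the ranges were -0.310 to 0.00297 (Rps27), -0.215 to 0.646 (Rpl39), -0.292 to 7.54e-07 (Rps6), -0.373 to 0.0160 (Rps29, ENSRNOG00000004196) and -0.441 to 0.0690 (Rps29, ENSRNOG00000028939). In preserved cells they were -0.224 to 0.0219 (Rpl22), -0.151 to 0.0231 (Rpl22l1), -0.263 to 0.0514 (Rpl3), -0.394 to 0.225 (Rpl3l), -0.342 to 0.0308 (Rpsa), -0.459 to 0.0161 (Rps19), -0.275 to 0.0264 (Rpl5) and -0.274 to 0.0119 (Rpl11). The cause of these shifts was not tested. The other 105 values of the main results kept a similar count or, for shares, the direction and side of the threshold, which 4 animals cannot pass. Lineage by preservation was not run with 2 UMIs of the marker because no myeloid gate had enough cells in every library.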
